A study of Homo sapiens with 4 samples.

Results

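Respiratory chain and mitochondrial membrane proteins were followed in LN229 cells, an established human glioblastoma cell line, with and without salmon calcitonin (sCT), a peptide ligand of the calcitonin receptor. The proteins were chosen by name, as every antibody row for ATP5A, ATP5H, Cox-IV, MTCO1, NDUFB4, SDHA, SDHB, UQCRC2, Porin and Cyclophilin-F. Of these 10 names 9 were matched, out of 440 antibodies in the panel, and SDHB was not analysed here under that name. The panel was measured by reverse phase protein array (RPPA), in which spots of lysate on a slide are stained with a single antibody. Of the 4 samples 2 were untreated and 2 had received 300 nM sCT for 60 min. Both groups were the same cell line, and apart from time the labels name no further alteration. The labels place the untreated samples at the start, and no untreated sample is labelled as kept for 60 min. The groups thus differ in time as well as in sCT, and the effect of time alone was not tested. The study profiled LN229 cells to find proteins that act downstream of sCT. A level is a linear relative value whose median over all antibodies was close to 1 in every sample. Since a slide is stained with a single antibody, a level compares samples for one antibody and not one antibody with another. A lysate averages over all cells, so more mitochondria per cell and more of a protein per mitochondrion cannot be told apart.

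Mitochondria make most of the ATP of a resting cell by oxidative phosphorylation. Complexes I and II pass electrons from NADH and succinate to ubiquinone, complex III hands them on to cytochrome c, and complex IV transfers them to oxygen. Complexes I, III and IV pump protons across the inner membrane, and the ATP synthase uses the resulting gradient. Most subunits are encoded in the nucleus and imported, while a few, MTCO1 among them, are encoded by mitochondrial DNA and made inside the organelle. Porin is the channel through which metabolites cross the outer membrane, and Porin and Cox-IV are often used as loading controls for mitochondria. Glioblastoma cells combine respiration with a high rate of glycolysis.

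Of the 9 proteins, Cyclophilin-F, NDUFB4 and UQCRC2 rose after sCT, by 25.8%, 15.4% and 15.4%, and none of the 9 fell at an adjusted p of 0.05 in limma (0 lower at an unadjusted p of 0.05 as well). Over the whole panel 21.4% of the antibodies were called higher, 33.6% were called lower and 55.0% were called in either direction, against 3 higher and 0 lower of these 9. The remaining 6 proteins, SDHA, Cox-IV, MTCO1, ATP5A, ATP5H and Porin, did not pass the test. The median log2 fold change of the 9 was 0.12, beside 0.02 over all 440 antibodies. It was above 0 for 7 of the 9, and for 228 of the 440. The changes were small. For 8 of the 9 the 95% interval of the log2 fold change lay within 0.58 in either direction, the fold threshold that the study used, and ATP5A was the exception. At that threshold together with an unadjusted p of 0.05 in limma, 0 of the 9 were called, where 21.6% of the panel were.

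**Figure D1:**
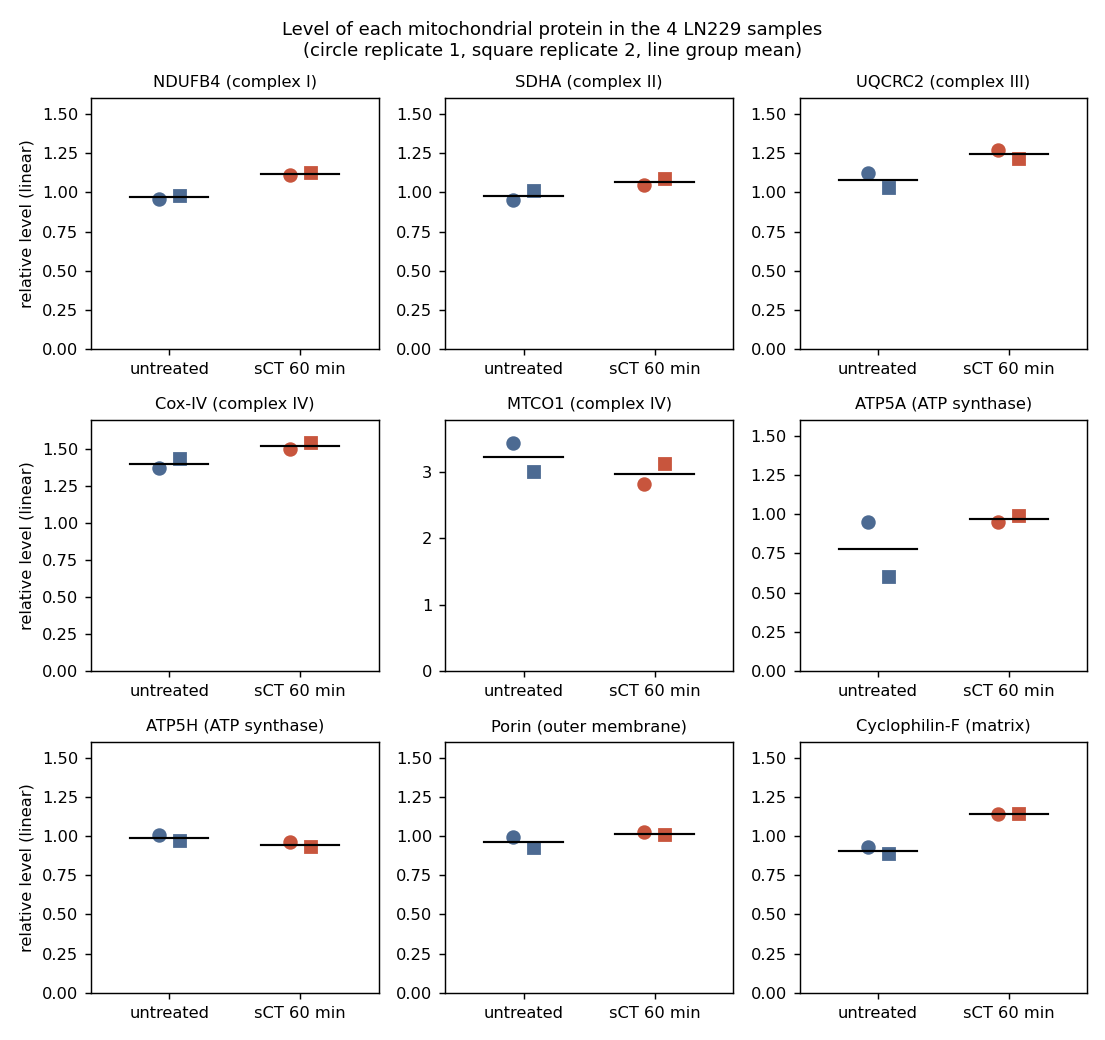
Relative level (linear, no unit) of each of the 9 proteins in the 2 untreated and 2 sCT-treated LN229 samples, with a line at each group mean. The axis starts at 0 and reaches higher for Cox-IV and MTCO1 than for the other proteins, which share one range. Cyclophilin-F, NDUFB4, UQCRC2, SDHA, Cox-IV and Porin sit higher in both treated samples and ATP5H sits lower in both. ATP5A has 1 low untreated sample at 0.602.

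The groups did not overlap for 7 of the 9 proteins, 6 of them higher in both treated samples and 1 lower. This separation was common across the panel, where 43.0% of the antibodies were higher without overlap and 43.0% lower, so it marks nothing particular to these proteins. The spread between replicates was of the usual size in the median, but not for ATP5A or MTCO1. The median SD of the log2 level over the 9 was 0.06 in untreated and 0.03 in treated cells, beside 0.05 and 0.04 over the panel. ATP5A reached 0.47 in untreated cells, and MTCO1 was at 0.14 in untreated and 0.11 in treated cells. With 2 samples in each group an exact permutation test of one protein cannot go below p = 0.333, so the calls rest on the spread that limma shares across antibodies. Nothing in the sources used here says that replicates were separate cultures, and the p-values then measure only the spread between these samples, which may be technical.

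NDUFB4, an accessory subunit of complex I, had levels of 0.958 and 0.979 in the untreated samples and of 1.11 and 1.12 in the treated ones. Both treated samples were higher, and the gap between the groups was several times the gap within either. The log2 fold change of NDUFB4 was 0.21 (SE 0.04, adjusted p = 0.0146), with an interval from 6.60% to 25.0% higher. Leaving out untreated replicate 1 ended the call (adjusted p = 0.0560), as did leaving out 1 of the treated samples (adjusted p = 0.0766 for sCT replicate 1 and 0.0860 for the other), while the log2 fold change stayed between 0.19 and 0.22.

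SDHA is the flavoprotein subunit of complex II, the enzyme shared by the respiratory chain and the citric acid cycle. In untreated cells its levels were 0.950 and 1.01, and after sCT they were 1.05 and 1.09. The groups did not overlap, but the log2 fold change of 0.12 (SE 0.05) did not pass the test (adjusted p = 0.114). Another antibody listed as Complex-II-Subunit, whose row does not say which subunit it recognises and which was added after its values were seen, gave 0.933 and 0.925 in untreated and 1.01 and 1.02 in treated cells. Its log2 fold change was 0.13 (adjusted p = 0.0562), close to that of SDHA. The log2 ratio of this antibody to SDHA within a sample differed by 0.0076 between the groups, less than the SD of 0.07 between the untreated samples.

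UQCRC2, a core protein of complex III, had levels of 1.13 and 1.03 in untreated cells and of 1.27 and 1.22 in treated cells. Both treated samples were higher than both untreated ones, although the untreated samples lay further apart than those of NDUFB4. The log2 fold change was 0.21 (SE 0.06, adjusted p = 0.0468), with an interval from 2.78% to 29.5% higher. This call lay closest to the threshold. It ended when untreated replicate 2 was left out (adjusted p = 0.136), and also when 1 of the treated samples was (adjusted p = 0.201 for sCT replicate 1 and 0.118 for sCT replicate 2), with log2 fold changes from 0.14 to 0.27 as each replicate was left out in turn.

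Complex IV, cytochrome c oxidase, was covered by a nuclear-encoded and a mitochondrially encoded subunit. Cox-IV, the nuclear-encoded one, had levels of 1.37 and 1.43 in untreated cells and of 1.498 and 1.541 after sCT. The groups did not overlap, with the lowest treated sample at 1.498 and the highest untreated one at 1.43. For Cox-IV the log2 fold change was 0.12 (SE 0.05), short of the threshold (adjusted p = 0.0961), and its interval ran from -0.689% to 18.7%. On linear levels in place of log2 the call was gained (adjusted p = 0.0491), as it was with quantile normalization at a log2 fold change of 0.37 (adjusted p = 0.00763).

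MTCO1, the catalytic core subunit of complex IV, had levels of 3.43 and 2.99 in untreated cells and of 2.81 and 3.12 in treated cells. The groups overlapped, since the second treated sample lay above the second untreated one. Its log2 fold change was -0.11 (SE 0.09, adjusted p = 0.329), and it was -0.014 without untreated replicate 1 and -0.21 without untreated replicate 2. The replicates of MTCO1 lay further apart than those of Cox-IV, with an SD of 0.14 in untreated and 0.11 in treated cells on the log2 scale. Set against Cox-IV within each sample, which was added with the values known, the log2 ratio of MTCO1 was 1.33 and 1.06 in untreated cells and 0.910 and 1.02 in treated cells. The ratio was lower in both treated samples, by 0.23 on average (exact permutation test, two-sided, p = 0.333, the smallest this design allows), with an SD of 0.18 between the untreated samples.

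The ATP synthase was measured by ATP5A, by its usual name the alpha subunit of the catalytic head, and ATP5H, subunit d of the stalk that holds the head in place. ATP5A was at 0.952 and 0.602 in untreated cells and at 0.948 and 0.989 in treated cells. The second untreated sample stood apart from the other 3, which lay close together. Its replicates differed by 1.58-fold, and only 7 of the 440 antibodies differed by more than 1.5-fold between the untreated samples. The log2 fold change of 0.36 had an SE of 0.22 and did not pass the test (adjusted p = 0.221), and its interval ran from -0.24 to 0.95. Without untreated replicate 1 the log2 fold change was 0.69 and was called (adjusted p = 0.00679), and without untreated replicate 2 it was 0.024 (adjusted p = 0.752). The mean difference of ATP5A therefore rests on 1 sample.

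ATP5H had levels of 1.01 and 0.971 in untreated cells and of 0.959 and 0.932 in treated cells. It was the only one of the 9 proteins with both treated samples below both untreated samples. The log2 fold change was -0.066 (SE 0.048, adjusted p = 0.278), and the interval ran from -0.19 to 0.060. It stayed between -0.094 and -0.038 with each replicate left out, the last without untreated replicate 1. Once each sample was centred on 5 loading control antibodies (relative loading control centring), ATP5H was the 1 protein of the 9 called lower, at -0.20 (adjusted p = 0.0485), where 38.9% of the panel were.

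Porin of the outer membrane had levels of 0.997 and 0.922 in untreated cells and of 1.02 and 1.01 in treated cells. The lowest treated sample lay just above the highest untreated one. The log2 fold change was 0.082 (SE 0.057, adjusted p = 0.256), with an interval from -0.067 to 0.23. Without untreated replicate 1 it was 0.14 and without untreated replicate 2 it was 0.026, and neither was called.

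Cyclophilin-F is a peptidyl-prolyl isomerase of the matrix, also called cyclophilin D, which acts on the inner membrane by promoting opening of the permeability transition pore. It is thus a soluble matrix protein rather than a membrane protein. Its levels were 0.930 and 0.885 in untreated cells and 1.14 in both treated samples. The treated samples were nearly equal, and both lay well above the untreated pair. The log2 fold change was 0.33 (SE 0.05, adjusted p = 0.00480), with an interval from 15.2% to 37.4% higher. The call held with each replicate left out in turn, with adjusted p between 0.0138 and 0.0446, and ended under the loading control centring described for ATP5H (0.20, adjusted p = 0.0583). In the order of log2 fold changes over the panel, Cyclophilin-F was number 47 from the highest, NDUFB4 number 88 and UQCRC2 number 89.

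**Figure D2:**
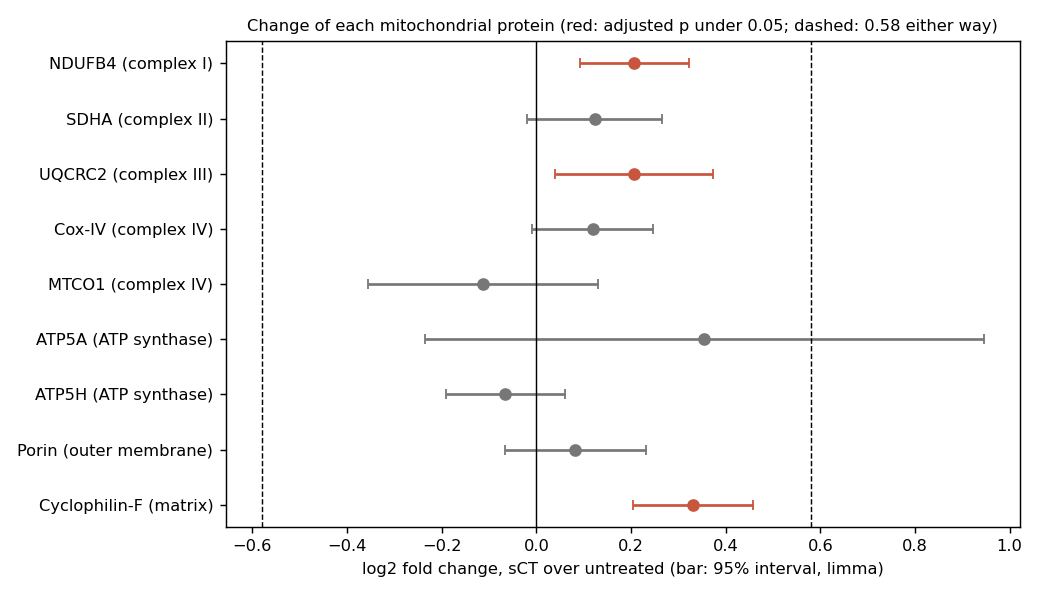
Log2 fold change of sCT-treated over untreated cells for the 9 proteins, as points with 95% intervals from limma, with dashed lines at 0.58 in either direction. Only Cyclophilin-F at 0.33, NDUFB4 at 0.21 and UQCRC2 at 0.21 passed an adjusted p of 0.05, and only the interval of ATP5A crosses a dashed line.

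In the order of the fold changes, ATP5A stood highest at 0.36 and was followed by Cyclophilin-F, NDUFB4 and UQCRC2, then SDHA, Cox-IV, Porin, ATP5H and finally MTCO1 at -0.11. NDUFB4 and UQCRC2 differed by less than their errors, as did SDHA and Cox-IV, and the place of ATP5A is not settled by its wide interval.

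The calls depended on how the samples were scaled. Relative loading control centring moved the whole panel by -0.13 log2 units. Under it Cyclophilin-F was at 0.20 (adjusted p = 0.0583), NDUFB4 at 0.074 (adjusted p = 0.454) and UQCRC2 at 0.073 (adjusted p = 0.469). The directions of SDHA, Cox-IV and Porin turned, to -0.010, -0.015 and -0.051, and limma called 0 of the 9 proteins higher (1 at an unadjusted p of 0.05), where 7.50% of the panel were called higher. Of the 5 loading controls, b-Actin and GAPDH were themselves called higher under the deposited scaling, at 0.17 (adjusted p = 0.0386) and 0.57 (adjusted p = 0.00578), and Histone-H3 was at -0.15 (adjusted p = 0.0812). Quantile normalization, which gives all samples one distribution of levels, called 4 of the 9 higher, Cyclophilin-F, NDUFB4, UQCRC2 and Cox-IV, and 0 lower (0 at an unadjusted p of 0.05), where 23.4% of the panel were called higher and 26.1% lower. It moved ATP5A to 0.88 and MTCO1 to -0.48, without a call for either (adjusted p = 0.267 and 0.194). MTCO1 was among the 4 highest levels of the panel in every sample, and ATP5A in untreated replicate 2 was number 437 of 440, so both stood at the ends of the distribution. Which scaling is right was not tested.

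**Figure D3:**
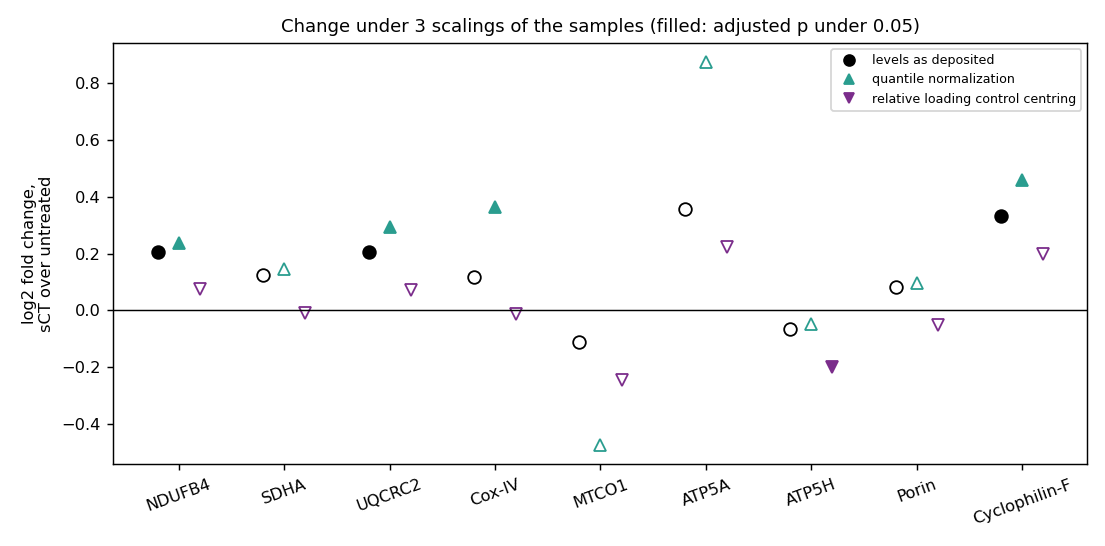
Log2 fold change of sCT-treated over untreated cells for the 9 proteins under the deposited scaling, quantile normalization and relative loading control centring, with filled marks for an adjusted p under 0.05 in limma. The 3 called rises keep their direction but lose their calls with loading control centring, where Cyclophilin-F is at 0.20, and SDHA, Cox-IV and Porin turn to just under 0.

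A ratio of 2 proteins within one sample does not depend on a factor that scales the whole sample, so each protein was also set against Porin. Relative to Porin, Cyclophilin-F, NDUFB4 and UQCRC2 were higher in both treated samples, and MTCO1 and ATP5H were lower in both. That is 3 of 8 higher and 2 of 8 lower without overlap, while of the 439 other antibodies of the panel 24.6% were higher and 47.6% lower relative to Porin.

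The log2 ratio of Cyclophilin-F to Porin was -0.10 and -0.060 in untreated cells and 0.16 and 0.18 in treated cells. The difference was 0.25, beside SDs within the groups of 0.028 and 0.018, each from only 2 samples. For UQCRC2 the ratio went from 0.18 and 0.16 to 0.31 and 0.27, a difference of 0.12. Both treated samples were higher, with an untreated SD of 0.011 and a treated SD of 0.027. For NDUFB4 the difference was 0.12 as well, but the untreated samples lay at -0.057 and 0.086, so that the second of them came close to the treated samples at 0.12 and 0.16. On the log2 scale the untreated SD was 0.022 for NDUFB4 itself and 0.079 for Porin, so this spread lay mostly in Porin. Without untreated replicate 1 the difference of NDUFB4 was 0.053, and without untreated replicate 2 it was 0.20, whereas for UQCRC2 it stayed between 0.10 and 0.14 and for Cyclophilin-F between 0.23 and 0.27 as each replicate was left out.

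The log2 ratio of ATP5H to Porin was 0.018 and 0.075 in untreated cells and -0.094 and -0.11 in treated cells, a difference of -0.15. That of MTCO1 was 1.78 and 1.70 in untreated and 1.46 and 1.63 in treated cells, a difference of -0.19, which was -0.11 without sCT replicate 1 and -0.28 without sCT replicate 2. The ratios of Cox-IV, SDHA and ATP5A to Porin overlapped between the groups, with differences of 0.036, 0.041 and 0.27. For the 5 ratios without overlap the exact permutation test gave p = 0.333, two-sided, which is the smallest possible with 2 samples against 2, so no ratio could pass a test in this design. In all, 11 ratios within samples were computed, these 8 and 3 between subunits of the same complex.

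**Figure D4:**
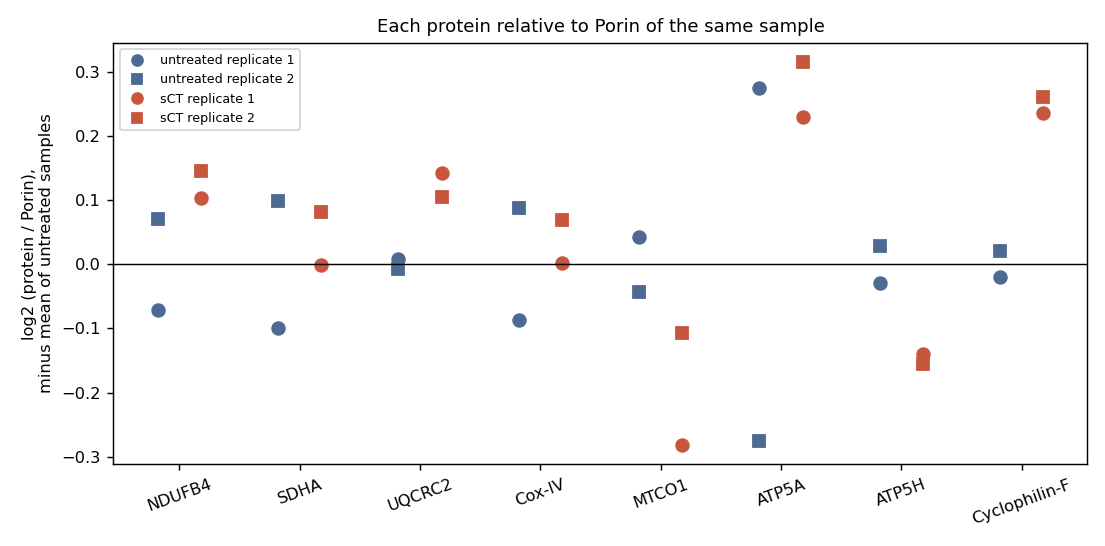
Log2 ratio of each protein to Porin in the same sample, minus the mean of the 2 untreated samples, with one mark for each of the 4 samples. Cyclophilin-F is 0.25 higher in treated cells with little spread, UQCRC2 and NDUFB4 are 0.12 higher, and ATP5H and MTCO1 are lower, by 0.15 and 0.19.

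The ratio of ATP5A to ATP5H, also added after the values were seen, was -0.084 and -0.69 in untreated cells and -0.017 and 0.085 in treated cells on the log2 scale. The difference of 0.42 was about as large as the SD of 0.43 between the untreated samples, and again rested on the low ATP5A level of the second one.

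Antibodies with the most similar course over the 4 samples were found by the root mean square difference between log2 levels, each centred on its own mean. Closest to Cox-IV were S100A4 (0.0077), DM-Histone-H3 (0.0081) and D-a-Tubulin (0.0085), with a median of 0.14 over the 431 antibodies outside the 9 proteins. SDHA followed Cox-IV almost as closely, at 0.010. For Porin the closest were Caspase-8 (0.016), phosphorylated A-Raf (0.017) and Stat3 (0.018), none of them called. Closest to Cyclophilin-F were PCNA (0.019), a clamp of DNA replication, Grp75 (0.024), a chaperone of the mitochondrial matrix, and 14-3-3-zeta (0.027). These 3 were called higher, at 0.31 (adjusted p = 0.00437), 0.32 (adjusted p = 0.00696) and 0.29 (adjusted p = 0.0101). With 4 samples in 2 groups such likeness mostly means a similar difference between the groups.

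Other mitochondrial proteins of the panel were counted by lists. Over the whole panel 21.4% of the antibodies were called higher and 33.6% lower. Of 10 matrix proteins besides Cyclophilin-F, 6 were called higher and 0 lower. All 10 had a positive log2 fold change, as had 228 of the 440 antibodies of the panel, and their median was 0.21. The 6 were glutamate dehydrogenase (Glutamate-D1-2) at 0.36 (adjusted p = 0.00878), the chaperones Grp75 and HSP60, Glutaminase, the superoxide dismutase SOD2 and the elongation factor TUFM. PDH, PDHA1, PDHK1 and TFAM, the packaging factor of mitochondrial DNA, were not called, with TFAM at 0.049 (adjusted p = 0.437). Of 6 proteins of the membranes, intermembrane space or outer surface, 3 were called higher and 0 lower (0 lower at an unadjusted p of 0.05). They were the fusion protein Mitofusin-1 at 0.51 (adjusted p = 0.00103) and the hexokinases Hexokinase-I at 0.33 (adjusted p = 0.00946) and Hexokinase-II at 0.60 (adjusted p = 0.0104), which bind to Porin. Of 9 BCL2 family proteins, which control permeability of the outer membrane, 4 were called higher and 1 lower, the last being Mcl-1 at -0.38 (adjusted p = 0.00231). Under the loading control centring the calls were 1 higher of the 10 matrix proteins, and 2 higher and 1 lower of the 6. Of the 9 BCL2 family proteins 0 were then called higher (1 at an unadjusted p of 0.05) and 1 lower. With that centring 7.50% of the panel were called higher and 38.9% lower. The median of the 10 matrix proteins was then 0.076, and with quantile normalization it was 0.30. For the 6 proteins the medians were 0.25 with the deposited scaling, 0.11 with the centring and 0.45 with quantile normalization, and for the BCL2 family they were 0.19, 0.057 and 0.27.

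The glycolytic and glycogen enzymes of the cytosol were a list of 9 that includes Hexokinase-II. Their median was 0.41, with 5 called higher and 1 lower, where 21.4% and 33.6% of the panel were. GAPDH belongs both to this list and to the 5 loading controls of relative loading control centring. With that centring the median of the list was 0.27, with 5 higher and 1 lower, where 7.50% and 38.9% of the panel were. The median of the 9 proteins followed here was then -0.010. With quantile normalization these medians were 0.73 and 0.24. Of this list LDHA had untreated replicates of 2.75 and 0.426, and was not called (adjusted p = 0.325).

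**Figure D5:**
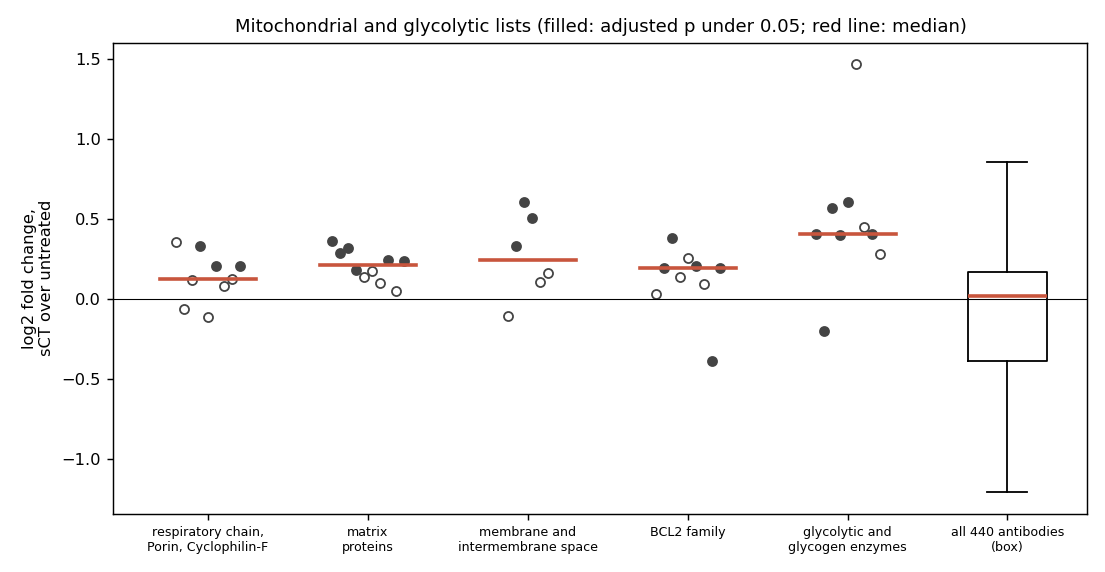
Log2 fold change of sCT-treated over untreated cells for each antibody of 5 lists (points, filled for an adjusted p under 0.05, red line at the median) and for all 440 antibodies (box of quartiles, values beyond the whiskers not drawn). The medians are 0.12 for the 9 proteins, 0.21 for matrix proteins and 0.41 for glycolytic and glycogen enzymes, beside 0.02 for the panel.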

How the data were processed

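The authors deposited one table of linear ratios, relative protein levels for 440 antibodies in 4 samples. According to the methods, diluted lysates were printed on nitrocellulose-coated slides, probed, developed with DAB and quantified with Array-Pro Analyzer. The steps from spot intensity to the deposited level are not given in the sources used here, and neither the background nor the detection limit of an antibody is known. No reads or counts underlie these values, and the number of samples limits their precision.

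Levels, all above 0, were transformed to log2 without a pseudocount or filter. The groups, taken from the sample titles, were set against each other with limma 3.58.1 (R 4.3.3, lmFit and eBayes without covariates, 2 residual and 2.59 prior degrees of freedom), two-sided, with Benjamini-Hochberg adjustment over 440 antibodies. Every adjusted p-value is limma's. Ratios within samples were compared with an exact permutation test (scipy 1.17.1). Only the limma fit was checked on simulated data, whose noise was independent between samples and antibodies. No set test was run.

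All members were named, with the 3 closest antibodies for Cox-IV, Porin and Cyclophilin-F. Complex-II-Subunit and ratios between subunits were added once the values were known. The members, lists and tests were chosen with earlier results of these data known. Row names were matched to RefSeq genes of GRCh38.p14 by symbol or synonym. Of 9, 7 matched 1 gene, ATP5A matched 4 and Cyclophilin-F none. The alternatives were linear levels, median centring, quantile normalization, relative loading control centring (each of 5 antibodies, b-Actin, Calnexin, GAPDH, Histone-H3 and Vinculin, taken relative to its mean, and each sample centred on their median), trend and robust estimation, the unequal-variance test on linear levels, limma's treat against 0.58, the thresholds of the study, leaving out the lowest 10% of antibodies, leaving out each replicate and the replicate number as a block.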

Additional observations from a re-analysis of the deposited data

How the results depend on the processing

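Of the 9 proteins 3 were called by limma, 3 higher and 0 lower. With each replicate left out the count was between 1 and 3, all higher, and it was 1 without sCT replicate 1 or without sCT replicate 2, where only Cyclophilin-F passed. With relative loading control centring 1 was called, 0 higher and 1 lower, and the log2 fold changes of Cox-IV, Porin and SDHA turned to -0.015, -0.051 and -0.010. The unequal-variance test on linear levels called 0 after adjustment and 1 at an unadjusted p of 0.05, NDUFB4. Treat against 0.58 called 0 (0 at an unadjusted p as well), and the thresholds of the study, taken with limma's unadjusted p, called 0. Over the panel, 242 antibodies were called, 94 of them higher, and between 148 and 214 with each replicate left out. Those called higher were 38 without sCT replicate 1, 43 without sCT replicate 2 and 55 without untreated replicate 2. There were 60 by treat, 95 at the thresholds of the study with limma's unadjusted p, and 155 unadjusted or 1 adjusted by the unequal-variance test. Linear levels and quantile normalization added Cox-IV to the calls. Median centring, trend and robust estimation and the filter on low levels changed no call among the 9. The differences in the ratios to Porin kept their direction on linear levels. With each replicate left out in turn, those of ATP5A, Cox-IV and SDHA, which overlapped between the groups, changed sign in at least 1 case. The labels do not say that a replicate number marks a shared culture, and with 2 pairs the numbers were not taken to pair the samples. Same-numbered samples deviated together (r = 0.586 across antibodies, which are not independent). With the replicate block 238 antibodies were called, 3 of them among the 9 proteins, and 0 calls among the 9 changed. The cause of the lost calls was not tested.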
